A study of Mus musculus with 10 samples.

Results

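Macrophages and monocytes of the mouse lung were followed through 42 genes, chosen by symbol as markers of alveolar macrophages, of interstitial and other resident macrophages, and of monocytes. Of these 42 genes, 39 were measured, out of 14989 genes tested. A gene was represented by its brightest probe set that is annotated to that gene alone, and was kept if its log2 expression was 5 or more on at least 2 arrays. Car4l had no such probe set, Ly6c1 was found only on a probe set that it shares with Ly6c2, and Arg1 was below 5 on all arrays. The 39 measured genes comprised 12 alveolar macrophage genes, 12 resident and interstitial macrophage genes, 5 monocyte and myeloid genes, 8 genes of lipid handling, scavenging and lysosomes, and 2 genes of activation and pattern recognition. Fabp1 and Itgam reached the level of 5 on room-air arrays alone, so a difference in these 2 genes was in part fixed by the filter.

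The lungs came from pups of the outbred ICR strain. Hyperoxia in such pups serves to model bronchopulmonary dysplasia, in which infants born early and given oxygen keep a damaged lung. Exposure began within 12 h of birth, when litters were mixed and allotted at random to 80% oxygen or to room air, and it lasted until postnatal day 14 (P14) or day 29 (P29). Dams were moved between the cages every 24 h in all groups, and no group carried a genetic change. Each age had 3 hyperoxia arrays, labelled BPD, and 2 room-air arrays, labelled WT, of total RNA from the dissected and rinsed whole lung. In this tissue RNA, fewer cells of a type and less RNA per cell cannot be told apart. Whether arrays stand for separate animals is not said in the labels, so a p-value here reflects no more than the spread among these samples, and that spread may be technical. The small number of arrays limits precision.

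Alveolar macrophages live in the air spaces, where they take up surfactant and inhaled particles. They arise from fetal monocytes around birth and depend on the growth factor GM-CSF, on TGF-beta and on the nuclear receptor PPAR-gamma. Interstitial macrophages lie in the tissue around vessels and airways, depend on the CSF1 receptor, and express complement C1q and scavenger receptors. Blood monocytes enter through the chemokine receptor CCR2 and can give rise to macrophages of either kind. The transcription factor PU.1 acts in all of these cells.

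Across genes, r was 0.993 to 0.996 within groups and 0.935 to 0.983 between them. The actin control probe sets give a measure of RNA quality, the signal at the 3' end less that at the 5' end, which grows when RNA is degraded or incompletely copied. This actin difference was 1.69 ± 0.46 in P14 hyperoxia and 0.43 ± 0.16 in P14 room air (log2 units, SD, n = 3 and 2), with no overlap. At P29 it was 1.81 ± 0.08 in hyperoxia (SD, n = 3), against 0.63 ± 0.16 in room air (SD, n = 2), again without overlap. Sex-linked transcripts were of the male pattern on all P14 arrays and of the female pattern on both P29 room-air arrays. Of the P29 hyperoxia arrays, replicate 1 was male in pattern, replicate 2 female, and replicate 3 carried transcripts of both sexes. Sex pattern thus differed between the exposures at P29.

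The promoters of 4 members are shown first, 2 that were lower at both ages (Fabp1 and the monocyte gene Itgam) and 2 that were higher at P29 (Retnla, C1qc). They are the 250 bases before the gene start as RefSeq gives it (build GRCm38.p6), at chr6:71199629-71199878 on the plus strand for Fabp1, chr7:128062390-128062639 plus for Itgam, chr16:48842359-48842608 plus for Retnla and chr4:136892915-136893164 minus for C1qc. Capitals mark the PU.1 core GAGGAAG, which reads CTTCCTC where it lies on the opposite strand. Of members called at P29 whose promoter holds this core, these 4 had the 2 lowest and 2 highest fold changes at P29.
Fabp1: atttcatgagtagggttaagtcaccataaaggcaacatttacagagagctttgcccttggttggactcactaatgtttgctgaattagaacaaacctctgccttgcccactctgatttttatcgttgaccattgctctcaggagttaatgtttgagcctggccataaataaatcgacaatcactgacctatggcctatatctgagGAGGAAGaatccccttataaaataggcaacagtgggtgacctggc
Itgam: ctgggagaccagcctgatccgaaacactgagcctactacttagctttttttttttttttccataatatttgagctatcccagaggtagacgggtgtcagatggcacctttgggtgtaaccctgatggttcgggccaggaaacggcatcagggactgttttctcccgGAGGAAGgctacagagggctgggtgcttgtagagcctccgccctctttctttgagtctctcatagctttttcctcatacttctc
Retnla: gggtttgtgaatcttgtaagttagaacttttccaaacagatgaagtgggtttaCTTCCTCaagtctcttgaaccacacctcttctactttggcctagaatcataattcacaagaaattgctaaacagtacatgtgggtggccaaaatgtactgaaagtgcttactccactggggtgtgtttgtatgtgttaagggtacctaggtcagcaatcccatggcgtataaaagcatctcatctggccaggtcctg
C1qc: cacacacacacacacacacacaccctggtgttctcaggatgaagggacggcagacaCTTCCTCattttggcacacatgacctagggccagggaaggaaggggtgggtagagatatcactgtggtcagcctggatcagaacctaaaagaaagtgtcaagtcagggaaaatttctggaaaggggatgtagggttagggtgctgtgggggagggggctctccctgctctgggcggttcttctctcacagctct
In these promoters the core starts 45 bases before the gene start in Fabp1, 84 in Itgam, 197 in Retnla and 194 in C1qc. Of the 39 measured members, 30 had a promoter in the RefSeq table, and 10 of these 30 (33.3%) held GAGGAAG on either strand, against 12.0% of all 27025 genes with a promoter. The AP-1 site TGANTCA, whose match on one strand is also a match on the other, was present in 5 of the 30 (16.7%), against 7.82% of all genes. These 5 were Cd68, Folr2, Itgax, Plet1 and Trem2, and Trem2 held both motifs. The C/EBP palindrome TTGCGCAA was found in 0 of the 30 and in 0.185% of all genes. The same core stands in promoters of members that were lower and of members that were higher in hyperoxia, and the letters are a description of the sequence and not of binding.

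The first comparison asked how hyperoxia had changed these genes by P14, and the second asked the same at P29, with limma and Benjamini-Hochberg adjustment over all genes at a threshold of 0.05. Of the alveolar macrophage genes 7 of 12 were lower at P14 and 11 of 12 at P29, while 6 of 12 resident and interstitial genes were higher at P29 (the 3 C1q chains, Pf4, Cd163 and Cx3cr1) and 1 was lower (Cd68). Of the 2 genes of activation and pattern recognition, Retnla was higher at P29 and Clec7a lower. At P14, 9 of 39 members were higher and 13 lower in hyperoxia, where 32.3% of all genes tested were called higher and 22.8% lower. At P29, 9 members were higher and 21 lower, where 34.2% of all genes were called higher and 25.5% lower. The median log2 fold change of the members was -0.13 at P14 and -0.30 at P29, beside 0.04 at either age over all genes. With every array set to its own 75th percentile, which moves the median of all genes to -0.14 and -0.13, the share of calls over all genes that were higher was 35.4% (P14) and 37.3% (P29), in place of 58.6% and 57.2%. At that scaling 5 members in place of 9 were higher at P14. With the actin difference as a term in the model, 1 member was higher and 1 lower at P14, and 3 were higher and 10 lower at P29.

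Members called lower at both ages numbered 13, and these were Chil3, Marco, Fabp1, Fabp5, Siglec1, Plet1, Krt79, Cd68, Itgam, Lyz2, Cd9, Cd36 and Ctsd. Pf4 and Cd163 were called higher at both ages, as was Ccr2 by its brightest probe set but not by its second brightest, which was lower at both. Ear3 was higher at P14 and lower at P29. Adgre1, Fcgr1, Folr2 and Gpnmb passed the test at neither age. The difference of the hyperoxia effects, P29 minus P14, passed the test for 19 members (22.5% of all genes), 5 with a higher value (11% of all genes) and 14 with a lower one (11.6% of all genes). This difference uses the same arrays as the other 2 comparisons and is not independent of them.

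**Figure D1:**
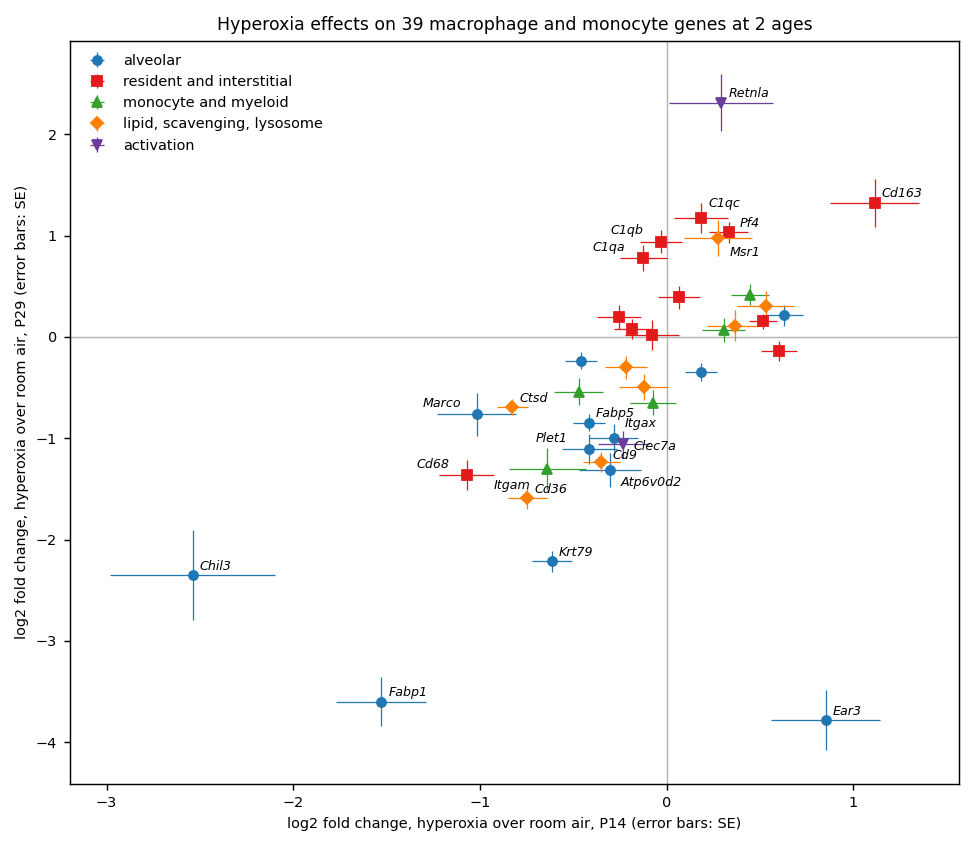
Log2 fold change of hyperoxia over room air at P14 (horizontal) and at P29 (vertical) for the 39 measured genes, with the SE of each contrast, coloured by role. Ear3 is the single gene far to the lower right, at 0.85 and -3.78, Retnla is the highest at P29 (2.31), and most alveolar genes lie below 0 on the vertical axis.

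Of the alveolar macrophage genes, Ear3, Fabp1, Chil3, Krt79 and Atp6v0d2 had the largest fold changes among those called. Chil3 encodes Ym1, a chitinase-like lectin that mouse alveolar macrophages secrete. At P14 Chil3 had log2 expression of 8.64, 6.74 and 8.13 in hyperoxia, against 10.29 and 10.45 in room air, and at P29 it had 10.98, 9.94 and 10.69 in hyperoxia, against 12.83 and 12.95 in room air. The groups did not overlap at either age, and hyperoxia replicate 2 was the lowest array at both. Chil3 was 5.81-fold lower at P14 (log2 fold change -2.54 ± 0.44 SE, limma adjusted p = 0.000676) and 5.10-fold lower at P29 (-2.35 ± 0.44, adjusted p = 0.000915). Its hyperoxia effects at the 2 ages were not shown to differ (difference 0.19 ± 0.62, adjusted p = 0.87), and the sign of that difference turns when P14 hyperoxia replicate 2 (-0.36) or P29 hyperoxia replicate 1 (-0.04) is left out. A separate probe set annotated to both Chil3 and its close relative Chil4 gave log2 fold changes of -3.56 at P14 and -3.73 at P29.

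Ear3 belongs to the eosinophil-associated ribonucleases, a mouse family of which several members are made by alveolar macrophages. Ear3 had 8.35, 7.05 and 7.85 in P14 hyperoxia, against 6.92 and 6.88 in P14 room air, and 8.04, 7.49 and 8.01 in P29 hyperoxia, against 11.53 and 11.73 in P29 room air. The 2 P29 room-air arrays stood far above the other 8, among which the hyperoxia arrays were the higher at P14. It was 13.8-fold lower at P29 (log2 fold change -3.78 ± 0.29 SE, limma adjusted p = 2.16e-06) and 1.80-fold higher at P14 (0.85 ± 0.29, adjusted p = 0.029). The difference of the effects was -4.63 ± 0.41 (adjusted p = 3.97e-05). The P14 call was lost without any 1 of P14 hyperoxia replicate 1 or 3 or P14 room-air replicate 1 or 2, with values of 0.55 to 0.87 and adjusted p of 0.0745 to 0.111. The Ear3 probe set is of a class that can also detect similar sequences, and other ribonucleases of the family may contribute to its signal. Of 6 eosinophil and basophil markers, Epx, Prg2, Ccr3, Il5ra and Cd200r3 were below 5 on all arrays, and the basophil protease Mcpt8 alone was measured, with a log2 of the summed level of 4.74 to 4.89 in P29 hyperoxia and 4.60 to 5.04 in P29 room air.

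Fatty acid binding proteins carry lipids within the cell. Fabp1 had 4.09, 3.88 and 4.05 in P14 hyperoxia, against 5.98 and 5.09 in P14 room air, and 4.14, 4.27 and 3.93 in P29 hyperoxia, against 7.38 and 8.06 in P29 room air. All 6 hyperoxia arrays were below the level of 5 and both room-air groups above it. It was 2.89-fold lower at P14 (log2 fold change -1.53 ± 0.24 SE, limma adjusted p = 0.000363) and 12.2-fold lower at P29 (-3.60 ± 0.24, adjusted p = 8.64e-07), and the effects differed by -2.07 ± 0.34 (adjusted p = 0.00151). The other probe set of Fabp1 gave -1.55 and -4.38. Hyperoxia values near the floor at both ages limit the fall that can be measured. The difference of the effects may therefore repeat the difference between the room-air groups of P14 and P29. Fabp5, the epidermal fatty acid binding protein found in alveolar macrophages and other lung cells, was also lower at both ages (-0.42 and -0.85, adjusted p = 0.00197 and 1.43e-05).

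Krt79, a keratin that is among the markers of mouse alveolar macrophages, had 5.70, 5.75 and 5.83 in P14 hyperoxia, against 6.55 and 6.20 in P14 room air. At P29 Krt79 had 5.87, 5.66 and 5.75 in hyperoxia, against 7.97 and 7.99 in room air. The hyperoxia arrays were lowest at both ages and lay within the same narrow range at P14 and P29. Krt79 was 1.53-fold lower at P14 (log2 fold change -0.62 ± 0.11 SE, limma adjusted p = 0.000638) and 4.65-fold lower at P29 (-2.22 ± 0.11, adjusted p = 1.28e-07), with a difference of -1.60 ± 0.15 (adjusted p = 5.34e-05). Atp6v0d2, a subunit of the proton pump that acidifies lysosomes, had 7.48, 7.18 and 7.52 in P14 hyperoxia, against 7.96 and 7.43 in P14 room air, and these arrays overlapped. At P29 Atp6v0d2 had 7.85, 7.49 and 7.86 in hyperoxia, against 8.98 and 9.11 in room air, without overlap. It was 2.49-fold lower at P29 (-1.31 ± 0.17, adjusted p = 6.38e-05), and the effects differed by -1.01 ± 0.24 (adjusted p = 0.0105). Its dimmer probe set lay at 6.13 to 6.49 in P14 hyperoxia and 6.99 to 7.53 in P14 room air, without overlap. That probe set gave -0.92 at P14 and -1.20 at P29, a difference of -0.28, so the age difference depends on the probe set.

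The other alveolar macrophage genes are surface receptors and a nuclear receptor. Marco, a scavenger receptor for bacteria and particles, was 2.02-fold lower at P14 and 1.70-fold lower at P29 (limma adjusted p = 0.0021 and 0.00953). Siglec1, the sialic acid binding receptor sialoadhesin, was 1.38-fold and 1.18-fold lower (adjusted p = 0.00104 and 0.0347). Itgax, the integrin CD11c, was 1.99-fold lower at P29 (adjusted p = 8.75e-05), as was Plet1, a surface protein of epithelial progenitors and alveolar macrophages, by 2.15-fold (adjusted p = 8.37e-05). Plet1 was also 1.33-fold lower at P14 (adjusted p = 0.0321). The other Plet1 probe sets were lower without overlap at P14 (log2 fold change -0.49 and -1.05) and at P29 (-0.72 and -1.94). Pparg, the nuclear receptor of alveolar macrophage differentiation, was 1.27-fold lower at P29 (adjusted p = 0.00513). Mrc1, the mannose receptor CD206, was 1.54-fold higher at P14 (adjusted p = 0.000502) and at P29 averaged 10.01 ± 0.07 in hyperoxia (SD, n = 3), against 9.79 ± 0.14 in room air (SD, n = 2).

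Several of these smaller changes kept their direction but lost their call when 1 array was left out. Omission of 1 array ended the P29 calls of Marco (without P29 room-air replicate 1, log2 fold change -0.60, adjusted p = 0.0905), Pparg (without P29 room-air replicate 2, -0.28, adjusted p = 0.0561) and Siglec1 (without P29 hyperoxia replicate 2 or 3 or either P29 room-air array, -0.27 to -0.19, adjusted p up to 0.17). The P14 call of Plet1 ended without P14 hyperoxia replicate 2 or 3 or P14 room-air replicate 1 (-0.42 to -0.21, adjusted p up to 0.324). Counted together, 2 alveolar macrophage genes were higher and 7 lower at P14, and 0 were higher and 11 lower at P29, of 12 measured. Their median log2 fold change was -0.42 at P14 and -1.05 at P29. The lower counts and these medians include Fabp1, whose difference was in part fixed by the filter. For 8 of the 12 the difference of the effects was lower, and for 0 it was higher. Over all genes tested, 32.3% were higher and 22.8% lower at P14, and 34.2% and 25.5% at P29. The difference was lower for 11.6% of all genes and higher for 11%.

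**Figure D2:**
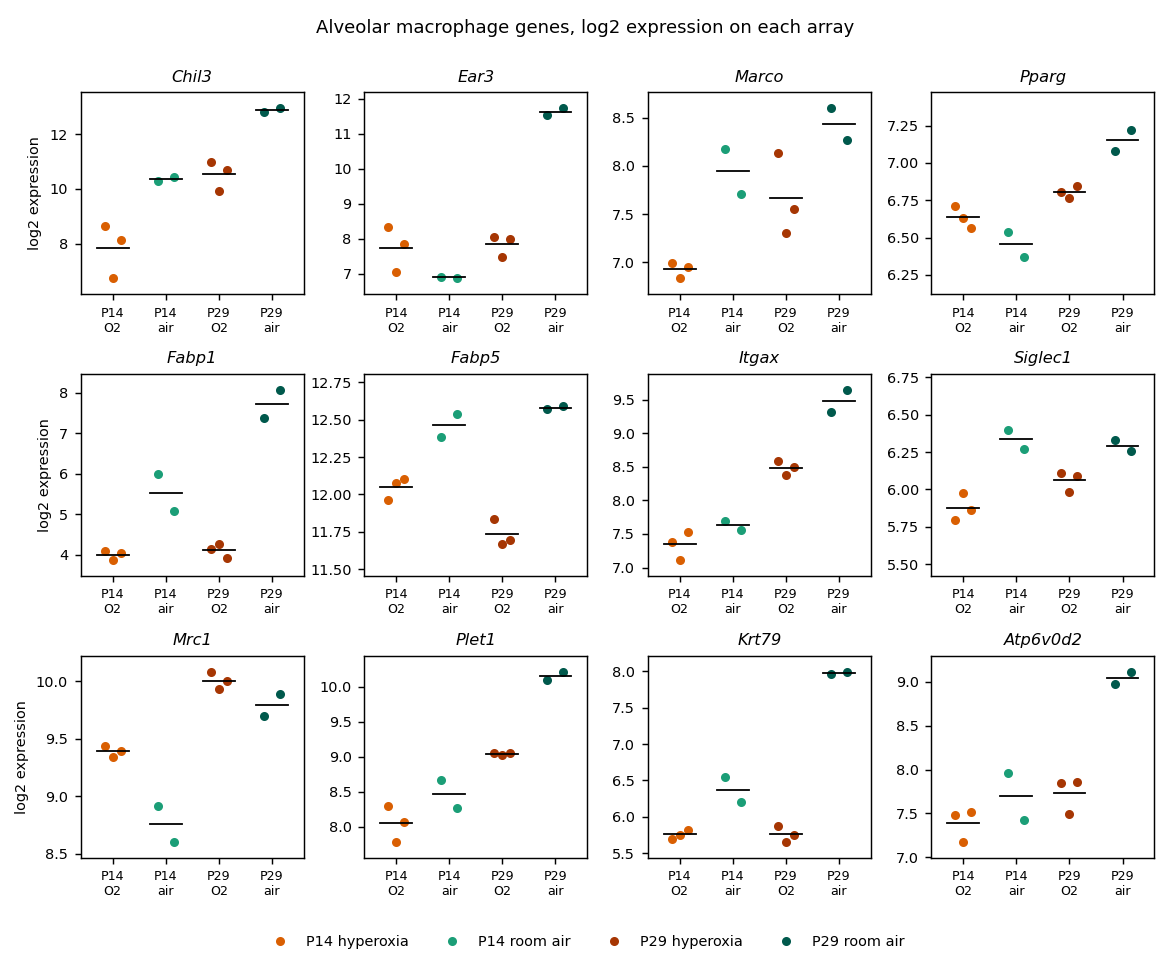
Log2 expression of the 12 measured alveolar macrophage genes on each array (points) with group means (lines), by age and exposure, on an axis of its own for each gene. In Chil3, Ear3, Fabp1, Krt79 and Atp6v0d2 all 3 P29 hyperoxia arrays lie below both P29 room-air arrays, and the 6 hyperoxia arrays of Fabp1 all lie below 5.

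The resident and interstitial macrophage genes did not move as one group. Of 12, 4 were higher and 1 lower in hyperoxia at P14, and 6 were higher and 1 lower at P29, with medians of 0.02 and 0.29. Over all genes tested, 32.3% were higher and 22.8% lower at P14, and 34.2% and 25.5% at P29. The 4 that were higher at P14 are about that share. The genes that were higher at P29 included all 3 chains of complement C1q, which opens the classical complement cascade. C1qb had 9.38, 9.65 and 9.51 in P29 hyperoxia, against 8.68 and 8.47 in P29 room air. At P14 C1qb had 8.36, 8.37 and 8.41 in hyperoxia, against 8.26 and 8.56 in room air, and the arrays overlapped. C1qb was 1.92-fold higher at P29 (log2 fold change 0.94 ± 0.11 SE, limma adjusted p = 4.05e-05), and the effects at the 2 ages differed by 0.97 ± 0.16 (adjusted p = 0.00141).

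C1qc had 9.03, 9.05 and 9.12 in P29 hyperoxia, against 7.90 and 7.88 in P29 room air, and at P14 it had 7.94, 7.95 and 8.38 in hyperoxia, against 7.70 and 8.11 in room air. The P29 hyperoxia arrays stood above all others, and the hyperoxia and room-air arrays of P14 overlapped. C1qc was 2.26-fold higher at P29 (1.17 ± 0.14 SE, limma adjusted p = 5.12e-05), with a difference of effects of 0.99 ± 0.20 (adjusted p = 0.00548). With the actin difference in the model the C1qc effect was 0.49 at P29, and the call ended (adjusted p = 0.119). C1qa was 1.72-fold higher at P29 (0.78 ± 0.13, adjusted p = 0.000346), with a difference of 0.91 ± 0.18 (adjusted p = 0.00441), and its P29 value with the actin term was 0.88 (adjusted p = 0.0546). The 2 dimmer probe sets of C1qb read higher in hyperoxia at P14 as well (0.76 and 1.26) and gave 1.72 and 2.18 at P29.

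Pf4 encodes platelet factor 4, a chemokine of platelets and megakaryocytes that tissue macrophages also make. Pf4 had 9.66, 9.56 and 9.70 in P14 hyperoxia, against 9.18 and 9.44 in P14 room air, and 9.88, 9.78 and 9.83 in P29 hyperoxia, against 8.93 and 8.66 in P29 room air. The hyperoxia arrays were higher at both ages without overlap. Pf4 was 2.05-fold higher at P29 (log2 fold change 1.04 ± 0.10 SE, limma adjusted p = 1.34e-05) and 1.26-fold higher at P14 (0.33 ± 0.10, adjusted p = 0.0198), and the effects differed by 0.70 ± 0.15 (adjusted p = 0.00606). The P14 call ended without P14 hyperoxia replicate 3 (0.30, adjusted p = 0.0566) or P14 room-air replicate 1 (0.20, adjusted p = 0.202).

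Cd163 is the receptor by which macrophages clear haemoglobin bound to haptoglobin. Cd163 had 6.87, 6.66 and 6.85 in P14 hyperoxia, against 5.79 and 5.57 in P14 room air, and 6.98, 7.66 and 7.08 in P29 hyperoxia, against 6.34 and 5.49 in P29 room air. Both comparisons were free of overlap, with the widest spread between the 2 P29 room-air arrays. Cd163 was 2.16-fold higher at P14 (1.11 ± 0.24 SE, limma adjusted p = 0.00242) and 2.51-fold higher at P29 (1.33 ± 0.24, adjusted p = 0.00067). With the actin term its values were 1.27 and 1.48, neither of them called (adjusted p = 0.166 and 0.0813).

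Cd68, the glycoprotein of macrophage late endosomes and lysosomes, was the single gene of this role that was lower. It had 7.23, 6.98 and 7.24 in P14 hyperoxia, against 8.50 and 7.95 in P14 room air, and 7.92, 7.97 and 7.84 in P29 hyperoxia, against 9.16 and 9.38 in P29 room air. No hyperoxia array reached a room-air array of its own age. Cd68 was 2.10-fold lower at P14 (log2 fold change -1.07 ± 0.15 SE, limma adjusted p = 0.000154) and 2.57-fold lower at P29 (-1.36 ± 0.15, adjusted p = 2.23e-05).

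Of the receptors in this role, 3 passed the test at neither age by their brightest probe set. Adgre1, the F4/80 antigen, averaged 7.44 ± 0.21 in P14 hyperoxia and 7.52 ± 0.14 in P14 room air, and 8.05 ± 0.23 in P29 hyperoxia and 8.03 ± 0.11 in P29 room air (SD, n = 3 and 2). Fcgr1, the high-affinity IgG receptor CD64, averaged 6.41 ± 0.15 in P14 hyperoxia and 6.67 ± 0.13 in P14 room air, and 7.09 ± 0.08 in P29 hyperoxia and 6.90 ± 0.23 in P29 room air. A dimmer Fcgr1 probe set was lower in hyperoxia without overlap at P14 (log2 fold change -0.50) and at P29 (-0.36). Folr2, a folate receptor of perivascular macrophages, averaged 6.62 ± 0.15 in P14 hyperoxia and 6.81 ± 0.08 in P14 room air, and 7.21 ± 0.09 in P29 hyperoxia and 7.13 ± 0.04 in P29 room air.

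Mertk, the receptor for engulfment of apoptotic cells, was 1.52-fold higher at P14 (limma adjusted p = 0.000397), and at P29 it averaged 8.91 ± 0.13 in hyperoxia (SD, n = 3), against 9.05 ± 0.04 in room air (SD, n = 2). The effects differed by -0.74 ± 0.14 (adjusted p = 0.00293). Csf1r, the receptor for CSF1 and IL-34, was 1.43-fold higher at P14 (adjusted p = 0.000244), and its effects differed by -0.36 ± 0.11 (adjusted p = 0.0335), a call that ended without any 1 of 8 arrays (adjusted p of 0.0506 to 0.0901). The dimmest of 3 Csf1r probe sets ran the other way, at 8.68 to 8.77 in P14 hyperoxia and 8.98 to 9.03 in P14 room air, and at 8.95 to 9.06 in P29 hyperoxia and 9.79 to 9.81 in P29 room air. Cx3cr1, the fractalkine receptor of patrolling monocytes and interstitial macrophages, was 1.31-fold higher at P29 (adjusted p = 0.0116). Omitting P29 room-air replicate 2 removed that call (0.21, adjusted p = 0.163), and a second, dimmer Cx3cr1 probe set gave -0.60.

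**Figure D3:**
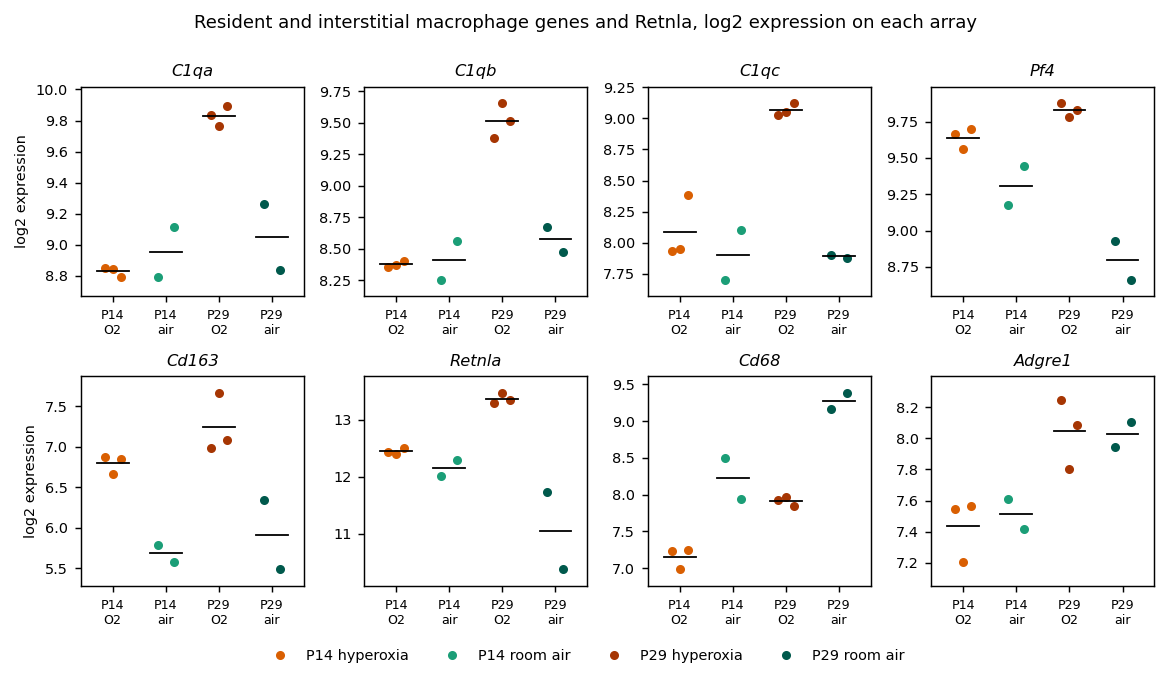
Log2 expression of 7 resident and interstitial macrophage genes and of Retnla on each array (points) with group means (lines), by age and exposure, on an axis of its own for each gene. The P29 hyperoxia arrays are the highest for C1qa, C1qb, C1qc, Pf4 and Retnla, Cd68 is lower in hyperoxia at both ages, and the Adgre1 arrays overlap at both.

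Of 5 monocyte and myeloid genes, 2 were higher and 2 lower at P14, and 1 was higher and 3 lower at P29. The higher ones were Ccr2 and, at P14, Cd14. The lower ones included Itgam at both ages, whose difference was in part fixed by the filter. For comparison, the share of tested genes called higher was 32.3% at P14 and 34.2% at P29. The share called lower was 22.8% at P14 and 25.5% at P29. With Ccr2 read from its second brightest probe set, a setting chosen after seeing the data, 1 gene was higher and 3 lower at P14, and 0 higher and 4 lower at P29. Itgam is the integrin CD11b of monocytes, neutrophils and some macrophages. Itgam had 4.87, 4.26 and 4.52 in P14 hyperoxia, against 5.28 and 5.10 in P14 room air, and 4.67, 4.85 and 4.78 in P29 hyperoxia, against 5.69 and 6.46 in P29 room air. All hyperoxia arrays were below the filter level, and the groups did not overlap. Itgam was 1.56-fold lower at P14 (log2 fold change -0.64 ± 0.21 SE, limma adjusted p = 0.0223) and 2.48-fold lower at P29 (-1.31 ± 0.21, adjusted p = 0.0003). The P14 call ended without P14 hyperoxia replicate 2 or 3 or either P14 room-air array (-0.73 to -0.49, adjusted p of 0.051 to 0.143). Markers of neutrophils, which also carry CD11b, moved with it: of 11 measured of 12, 11 were lower at P14 and 10 at P29. Of these 11, Cxcr2 and Mpo reached the level of 5 on room-air arrays alone, so their difference was in part fixed by the filter. The log2 of their summed level was 10.49 to 10.65 in P14 hyperoxia and 12.35 to 12.38 in P14 room air, and 10.04 to 10.10 in P29 hyperoxia and 12.50 to 13.11 in P29 room air. Their part in the Itgam values was not tested.

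Lyz2, the lysozyme of macrophages, neutrophils and alveolar type 2 cells, had 13.36, 12.85 and 13.01 in P14 hyperoxia, against 13.59 and 13.49 in P14 room air. At P29 Lyz2 had 13.84, 13.58 and 13.75 in hyperoxia, against 14.25 and 14.28 in room air. The hyperoxia arrays were lower at both ages without overlap. Lyz2 was 1.39-fold lower at P14 (-0.47 ± 0.13 SE, limma adjusted p = 0.0113) and 1.45-fold lower at P29 (-0.54 ± 0.13, adjusted p = 0.0049), and the P14 call ended without P14 room-air replicate 1 (-0.42, adjusted p = 0.0821). Of 7 measured alveolar type 2 markers, 3 were lower at P14 and 4 at P29, with a log2 of the summed level of 15.70 to 15.87 in P14 hyperoxia and 15.95 to 16.08 in P14 room air, and of 15.88 to 16.00 in P29 hyperoxia and 16.42 to 16.43 in P29 room air. Over all genes, 22.8% were lower at P14 and 25.5% at P29. The part of alveolar type 2 cells in the Lyz2 values was not tested.

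Ccr2, the chemokine receptor of inflammatory monocytes, had 8.29, 8.0 and 8.20 in P14 hyperoxia, against 7.69 and 7.75 in P14 room air, and 9.26, 9.44 and 9.38 in P29 hyperoxia, against 8.85 and 9.03 in P29 room air. It was 1.36-fold higher at P14 and 1.33-fold higher at P29 (limma adjusted p = 0.00387 and 0.00505), with no overlap at either age. When P29 room-air replicate 1 was omitted the P29 call was lost (0.33, adjusted p = 0.0589). The direction depends on the probe set, because the second brightest gave -0.53 and -0.72, a further one -0.96 and -0.79, and the fourth 0.29 and 0.64. No single direction for Ccr2 is given by its 4 probe sets.

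Cd14, the co-receptor for bacterial lipopolysaccharide, had 8.04, 8.34 and 8.23 in P14 hyperoxia, against 7.89 and 7.90 in P14 room air, without overlap. At P29 Cd14 had 9.34, 9.69 and 9.39 in hyperoxia, against 9.44 and 9.37 in room air, and the arrays overlapped. The 1.24-fold higher value at P14 was close to the threshold (limma adjusted p = 0.0443), and it was lost without any 1 of 7 arrays, which were P14 hyperoxia replicates 2 and 3, both P14 room-air arrays, P29 hyperoxia replicate 3 and both P29 room-air arrays (0.24 to 0.31, adjusted p up to 0.15). Ctss, the cathepsin that trims the invariant chain in antigen presentation, had 10.78, 10.52 and 10.87 in P29 hyperoxia, against 11.28 and 11.47 in P29 room air. At P14 Ctss had 9.99, 9.96 and 10.06 in hyperoxia, against 10.24 and 9.92 in room air, where the groups overlapped. Ctss was 1.57-fold lower at P29 (-0.65 ± 0.12 SE, adjusted p = 0.00101).

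Of the 8 genes of lipid uptake, scavenging and lysosomes, 1 was higher and 3 were lower at P14, and 1 was higher and 5 were lower at P29. Among the 14989 genes tested, the share called higher was 32.3% at P14 and 34.2% at P29. The share called lower was 22.8% at P14 and 25.5% at P29. Cd36 takes up fatty acids and oxidised lipoproteins in macrophages and in capillary endothelium. Cd36 had 11.22, 11.17 and 11.02 in P14 hyperoxia, against 12.03 and 11.74 in P14 room air, and 10.99, 11.17 and 11.16 in P29 hyperoxia, against 12.67 and 12.73 in P29 room air. The hyperoxia arrays were lower at both ages without overlap. Cd36 was 1.68-fold lower at P14 (log2 fold change -0.75 ± 0.10 SE, limma adjusted p = 0.000167) and 3.01-fold lower at P29 (-1.59 ± 0.10, adjusted p = 7.61e-07), with a difference of effects of -0.84 ± 0.15 (adjusted p = 0.00221). Its 2 other probe sets gave -0.35 and -0.36 at P14 and -1.54 and -1.65 at P29.

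Cd9, a membrane-organising tetraspanin, had 10.97, 10.98 and 11.17 in P29 hyperoxia, against 12.32 and 12.23 in P29 room air. At P14 Cd9 had 11.13, 11.03 and 11.11 in hyperoxia, against 11.58 and 11.31 in room air, and neither age showed overlap. It was 2.36-fold lower at P29 (-1.24 ± 0.10 SE, limma adjusted p = 2.9e-06) and 1.27-fold lower at P14 (-0.35 ± 0.10, adjusted p = 0.0118). The P14 call ended without P14 room-air replicate 1 (-0.22, adjusted p = 0.137). Both Cd36 and Cd9 are also made by endothelium, and of 10 capillary endothelial markers 2 were higher and 3 lower at P14, and 0 higher and 8 lower at P29. The log2 of their summed level was 14.53 to 14.64 in P14 hyperoxia and 14.67 to 14.72 in P14 room air, and 14.19 to 14.36 in P29 hyperoxia and 15.24 to 15.28 in P29 room air. The part of these cells in the Cd36 and Cd9 values was not tested.

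Msr1, the class A scavenger receptor, had 5.81, 6.54 and 6.4 in P14 hyperoxia, against 5.98 and 5.97 in P14 room air, and 7.35, 7.51 and 7.13 in P29 hyperoxia, against 6.30 and 6.4 in P29 room air. The groups overlapped at P14 and not at P29, where Msr1 was 1.97-fold higher (0.98 ± 0.18 SE, limma adjusted p = 0.000862). The other 3 Msr1 probe sets gave smaller values at P29, from -0.0029 to 0.46. Ctsd, the aspartic protease of lysosomes, had 10.74, 10.71 and 10.81 in P14 hyperoxia, against 11.56 and 11.60 in P14 room air, and 11.26, 11.22 and 11.42 in P29 hyperoxia, against 11.96 and 12.03 in P29 room air. It was lower at both ages without overlap, by 1.77-fold at P14 (-0.83 ± 0.08, adjusted p = 2.26e-05) and 1.61-fold at P29 (-0.69 ± 0.08, adjusted p = 4.34e-05).

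Ctsk, a collagen-degrading cathepsin of macrophages, osteoclasts and fibroblasts, had 6.15, 6.05 and 6.18 in P14 hyperoxia, against 5.80 and 5.40 in P14 room air, without overlap. It was 1.44-fold higher at P14 (limma adjusted p = 0.0118), a call that ended without P14 room-air replicate 2 (0.33, adjusted p = 0.136). At P29 Ctsk had 6.17, 6.65 and 6.42 in hyperoxia, against 5.97 and 6.25 in room air, with overlap. Of 8 fibroblast markers 2 were higher and 3 lower at P14, and 5 higher and 2 lower at P29, with a log2 of the summed level of 15.54 to 15.61 in P14 hyperoxia and 15.60 to 15.64 in P14 room air. Their part in the Ctsk values was not tested.

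Apoe, the lipid carrier, was 1.41-fold lower at P29 (limma adjusted p = 0.00732), and Trem2, a receptor for lipids and apoptotic cells, was 1.23-fold lower (adjusted p = 0.0409). Without P29 room-air replicate 2 the Apoe call ended (-0.44, adjusted p = 0.055). The Trem2 call ended without P14 hyperoxia replicate 1, P29 hyperoxia replicate 2 or 3, or either P29 room-air array (-0.38 to -0.22, adjusted p up to 0.231). Gpnmb, a glycoprotein of lipid-laden macrophages, averaged 6.59 ± 0.05 in P14 hyperoxia and 6.23 ± 0.21 in P14 room air, and 7.75 ± 0.31 in P29 hyperoxia and 7.64 ± 0.01 in P29 room air (SD, n = 3 and 2).

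The 2 measured genes of activation and pattern recognition moved in opposite directions at P29. Retnla encodes the resistin-like molecule RELM-alpha, which is made by alternatively activated macrophages and by other lung cells. Retnla had 13.29, 13.47 and 13.35 in P29 hyperoxia, against 11.73 and 10.38 in P29 room air. At P14 Retnla had 12.43, 12.40 and 12.50 in hyperoxia, against 12.01 and 12.30 in room air. The hyperoxia arrays were tightly grouped at both ages, and the 2 P29 room-air arrays were the lowest and lay farthest apart. Retnla was 4.97-fold higher at P29 (log2 fold change 2.31 ± 0.28 SE, limma adjusted p = 4.42e-05), where it ranked 76 from the highest among all 14989 genes, and the effects differed by 2.02 ± 0.39 (adjusted p = 0.00407).

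Clec7a, the beta-glucan receptor Dectin-1, had 9.22, 8.82 and 8.97 in P29 hyperoxia, against 10.03 and 10.10 in P29 room air. At P14 Clec7a had 8.86, 8.42 and 8.60 in hyperoxia, against 8.91 and 8.81 in room air, and the arrays overlapped. Clec7a was 2.09-fold lower at P29 (-1.06 ± 0.14 SE, limma adjusted p = 7.14e-05), with a difference of effects of -0.83 ± 0.19 (adjusted p = 0.0105). Arg1, which encodes the arginine-hydrolysing enzyme of alternatively activated macrophages, lay between 3.87 and 4.76 on the 10 arrays and was not tested.

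The next comparisons asked how the same genes changed between P14 and P29, within room air and within hyperoxia. They use the same arrays as the comparisons above and are not independent of them. In room air, 26 of 39 members were higher and 2 lower at P29 than at P14, where 22.2% of all genes were called higher and 19.1% lower. In hyperoxia, 23 members were higher and 1 lower at P29, where 15.4% of all genes were called higher and 11.7% lower. The median log2 fold change of the members with age was 0.58 in hyperoxia and 0.72 in room air, beside 0.01 over all genes in each.

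Of the 12 alveolar macrophage genes, 5 were higher and 1 lower at P29 in hyperoxia, with a median of 0.26, and 9 were higher and 0 lower in room air, with a median of 1.48. Ear3 had an age effect of 0.10 ± 0.26 in hyperoxia and of 4.73 ± 0.32 in room air (log2 fold change ± SE, limma adjusted p = 0.834 and 8.61e-07). Fabp1 had 0.11 ± 0.22 in hyperoxia and 2.18 ± 0.26 in room air (adjusted p = 0.761 and 5.76e-05), and Krt79 had 0.00 ± 0.10 and 1.60 ± 0.12 (adjusted p = 0.995 and 1.35e-06). For these 3 genes the gap between the age effects is the difference of hyperoxia effects that was tested above. The hyperoxia values of Fabp1 lay near the floor at both ages, so a change with age there could go unseen. Chil3 rose in both, by 2.70 ± 0.40 in hyperoxia and by 2.52 ± 0.48 in room air (adjusted p = 0.000564 and 0.0015), and Itgax and Plet1 rose in both as well.

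Of the resident and interstitial genes, 8 of 12 were higher with age and 0 lower in hyperoxia, and 5 were higher and 1 lower in room air. C1qa, C1qb and C1qc rose by 1.0, 1.14 and 0.98 in hyperoxia (limma adjusted p = 0.000112, 2.06e-05 and 0.000301), while in room air their age effects were 0.10, 0.17 and -0.01 (adjusted p = 0.62, 0.311 and 0.96). Pf4 and Retnla were the 2 members that fell with age in room air, by 0.52 and 1.10 (adjusted p = 0.00373 and 0.0131). The Retnla value was -0.43 without P29 room-air replicate 2 and -1.77 without P29 room-air replicate 1, and its call ended without P14 room-air replicate 2 (-0.96, adjusted p = 0.0925). In hyperoxia Retnla rose by 0.92 (adjusted p = 0.0181), a call that ended without replicate 2 of P14 hyperoxia (0.90, adjusted p = 0.0508) or of P29 hyperoxia (0.87, adjusted p = 0.0543). Fabp5 was the single member that fell in hyperoxia, by 0.31 (adjusted p = 0.0114). All 5 monocyte and myeloid genes rose in room air, and 4 of the 5 in hyperoxia, with Ccr2 up by 1.20 in hyperoxia and 1.23 in room air and Cd14 by 1.28 and 1.51. The Itgam call in room air ended without P14 or P29 room-air replicate 2 (0.79 and 0.50, adjusted p = 0.0645 and 0.0851). In the P29 room-air group both arrays carried female RNA and in P14 room air both carried male RNA, so age and sex cannot be told apart there. With the level of Y-linked genes as a term, 0 members were lower in room air.

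**Figure D4:**
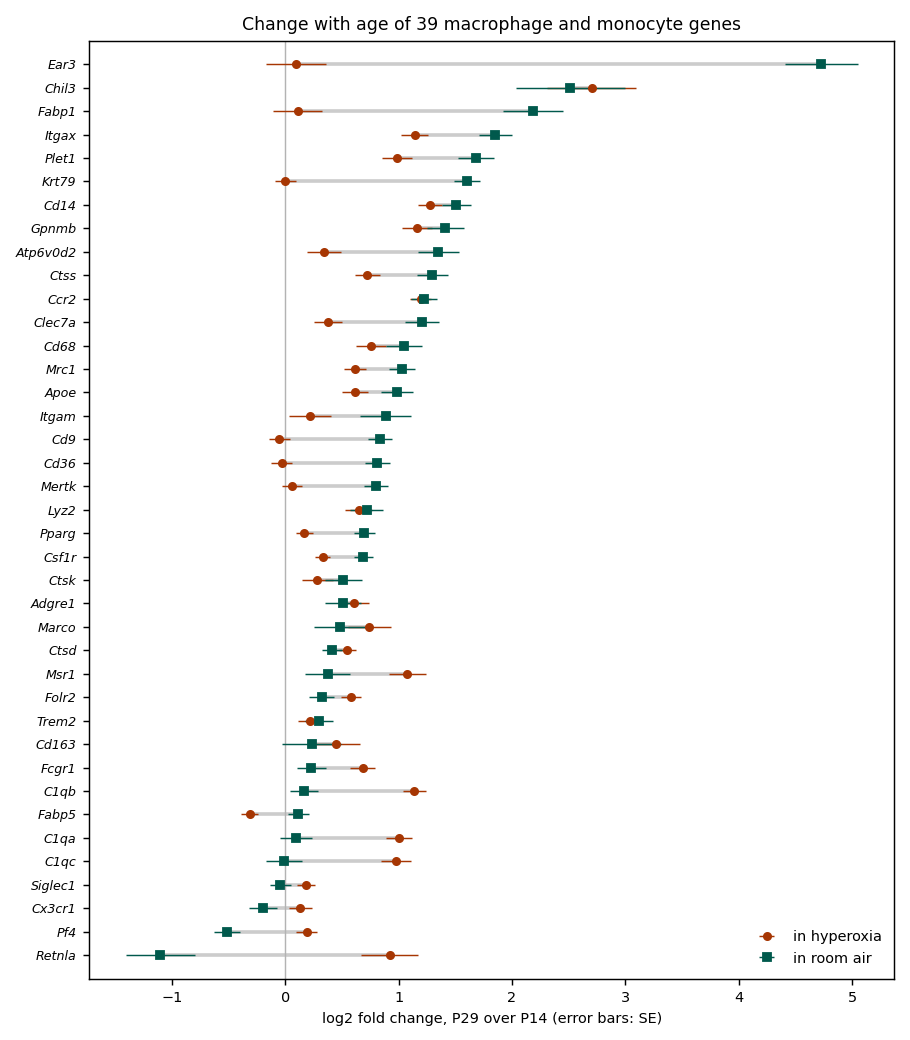
Log2 fold change of P29 over P14 for the 39 measured genes in hyperoxia (circles) and in room air (squares), with SE, ordered by the room-air value; grey bars join the 2 values of a gene. Ear3 stands at 0.10 in hyperoxia and 4.73 in room air, while the C1q chains stand near 1 in hyperoxia and near 0 in room air.

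Genes that act on these cells were read from 4 further lists. Their counts stand beside shares over all genes of 32.3% higher and 22.8% lower at P14, and 34.2% and 25.5% at P29. Among 13 growth factors, chemokines and their receptors, 2 were higher and 2 lower at P14, and 3 higher and 6 lower at P29. Ccl12, a mouse ligand of CCR2, had 7.98, 8.71 and 8.47 in P29 hyperoxia, against 5.49 and 4.90 in P29 room air. At P14 Ccl12 had 6.36, 5.73 and 6.25 in hyperoxia, against 6.39 and 6.37 in room air. It was 9.14-fold higher at P29 (log2 fold change 3.19 ± 0.23 SE, limma adjusted p = 1.54e-06), with a difference of effects of 3.46 (adjusted p = 5.97e-05). Ccl2, another CCR2 ligand, was higher at P29 by 0.95 on the log2 scale (adjusted p = 1.19e-05). Cx3cl1, the ligand of CX3CR1, was higher at P14 (0.50) and lower at P29 (-0.80, adjusted p = 0.00106 and 3.57e-05). Il34, a ligand of the CSF1 receptor, was lower at both ages (-0.31 and -0.78, adjusted p = 0.0402 and 0.000161).

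The GM-CSF gene Csf2 averaged 6.72 ± 0.11 in P29 hyperoxia and 6.64 ± 0.09 in P29 room air (SD, n = 3 and 2), and it did not pass the test at either age. The 3 listed genes of the GM-CSF receptor were lower at P29, namely Csf2ra (-0.58), Csf2rb (-0.64) and Csf2rb2 (-0.74), with limma adjusted p of 0.00924, 0.0018 and 0.00225. Csf2 and its receptor genes were picked for naming after their values had been seen.

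Of 12 transcription factors measured, 4 were higher and 3 lower at P14, and 3 higher and 3 lower at P29. Spi1, which encodes PU.1, was lower at both ages (log2 fold change -0.45 and -0.89, limma adjusted p = 0.00116 and 8.9e-06). Maf, a factor of interstitial and other resident macrophages that other lung cells also express, was higher at P29 (1.18, adjusted p = 2.05e-05). Bhlhe40 was higher at both ages (1.29 and 0.36, adjusted p = 1.07e-05 and 0.0199), as was Klf4, a factor of monocytes and endothelium (1.43 and 0.72, adjusted p = 1.76e-05 and 0.00109).

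Of 10 further alveolar macrophage genes measured, 0 were higher and 5 lower at P14, and 1 was higher and 7 lower at P29. Siglecf, the sialic acid binding receptor used to identify mouse alveolar macrophages, had 4.09, 4.34 and 4.09 in P29 hyperoxia, against 6.79 and 7.25 in P29 room air. At P14 Siglecf had 3.99, 3.83 and 3.98 in hyperoxia, against 4.59 and 4.16 in room air. It was 7.20-fold lower at P29 (-2.85 ± 0.15 SE, limma adjusted p = 2.49e-07). Cidec, a lipid droplet protein, was 3.31-fold lower at P29 (-1.73 ± 0.14, adjusted p = 2.27e-06). Siglecf and Cidec reached the level of 5 on the P29 room-air arrays alone, so a difference at P29 was in part fixed by the filter. Both also count among the 5 that were lower at P14, where all arrays of both genes lay below the level of 5. The cytokine Il18 was lower at P29 (-1.24, adjusted p = 1.49e-05), and the carbonic anhydrase Car4, which capillary endothelium also makes, was lower at both ages (-0.68 and -0.98, adjusted p = 6.02e-05 and 3.29e-06).

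Of 14 further interstitial macrophage and monocyte genes measured, 4 were higher and 6 lower at each age. Ms4a7, a membrane protein of monocyte-derived and tissue macrophages, had 8.51, 8.62 and 8.54 in P29 hyperoxia, against 6.70 and 6.74 in P29 room air, and was 3.57-fold higher (1.84 ± 0.07 SE, limma adjusted p = 3.62e-08). At P14 Ms4a7 had 8.01, 8.08 and 8.07 in hyperoxia, against 7.48 and 7.51 in room air. Aif1, the cytoskeletal protein IBA1, was higher at P14 (1.17) and at P29 (1.80), with adjusted p of 3.22e-05 and 1.08e-06. Lyve1, a hyaluronan receptor of perivascular macrophages and of lymphatic endothelium, was higher by 2.33 at P14 and by 1.30 at P29 (adjusted p = 1.18e-07 and 2.22e-06). Tyrobp, the signalling adaptor DAP12 of myeloid receptors, was lower at both ages (-1.01 and -1.15, adjusted p = 8.88e-06 and 1.79e-06).

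**Figure D5:**
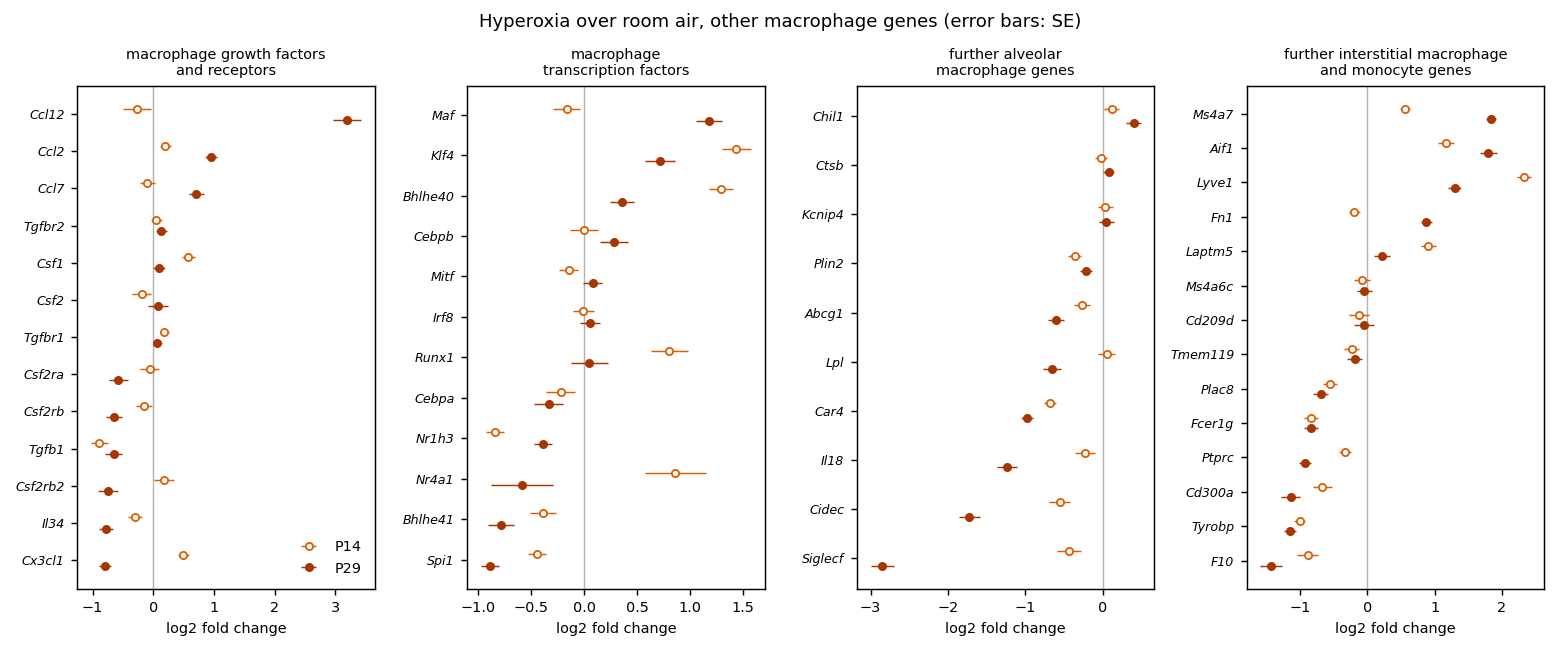
Log2 fold change of hyperoxia over room air at P14 (open circles) and P29 (filled circles), with SE, for the measured genes of 4 further macrophage lists, each on an axis of its own. Ccl12 stands alone at 3.19 at P29 among the growth factors and chemokines, and Siglecf is the lowest of the further alveolar genes at P29 (-2.85).

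RNA quality and markers of some other cells also differed between the exposures. The counts below stand beside shares over all genes of 32.3% higher and 22.8% lower at P14, and 34.2% and 25.5% at P29. Of 9 dendritic cell markers, 1 was higher and 2 lower at P14, and 4 higher and 1 lower at P29. Of 9 lymphocyte markers, 0 were higher at either age, and 8 were lower at P14 and 9 at P29, among them Cd2, which reached the level of 5 on room-air arrays alone. Of 5 proliferation genes, 4 were higher at P14 and 5 at P29. When the actin difference entered the model, 1 member was called higher (Mertk) and 1 lower (Ctsd) at P14, and 3 were called higher and 10 lower at P29. The 3 higher were C1qb, Pf4 and Retnla, and the 10 lower were Ear3, Fabp1, Fabp5, Itgax, Krt79, Atp6v0d2, Cd68, Cd9, Cd36 and Ctsd. The SE of the member effects was 1.43 to 2.40 times as large with the term. Of the 20 calls that ended at P14, 15 had a log2 fold change within 1.5 times of that without the term, among them Chil3 (-2.55), Fabp1 (-1.49) and Cd68 (-1.08). The other 5 were smaller by more than that, namely Marco, Plet1, Lyz2, Cd14 and Cd36. At P29, 11 of 17 ended calls were within 1.5 times, Chil3 (-2.36) and Cd163 among them, and 6 were smaller by more, namely Marco, Pparg, C1qc, Lyz2 (-0.23), Apoe (-0.03) and Msr1. The actin difference separates the exposures at both ages. The part of RNA quality in any call, kept or ended, therefore cannot be told apart from that of exposure.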

How the data were processed

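Expression arrays from Affymetrix with 45101 probe sets were hybridised with lung RNA of 10 samples. The values the authors deposited are on a log2 scale. The submitters' processing notes list Partek 6.4 and GCRMA. How background was corrected and arrays were normalized beyond these names is not given in the sources used here. GCRMA corrects each probe for its base composition, which can alter low signals most. Deposited array medians lay between 6.41 and 6.47.

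Of the probe sets, 34958 carried 1 gene symbol, 932 several and 9211 none, by the platform annotation, and only the first were used. Of 18194 genes, 14989 passed the filter of log2 5 on at least 2 arrays. One limma model (version 3.58.1, under R 4.3.3) held the 4 groups of all 10 arrays, fitted by lmFit and moderated by eBayes (6 residual and 5.09 prior degrees of freedom). Tests were two-sided, with Benjamini-Hochberg adjusted p-values over all genes kept. Errors marked SE belong to the fitted contrast, and SD is between arrays. The steps were tested on simulated data. Summed levels of marker lists are the log2 of summed unlogged values.

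Values on every array are given for up to 5 members of each role, those with the largest absolute log2 fold change among members called at either age. Of each further list, up to 4 genes of smallest p are named, except where stated. The members and lists were chosen with earlier results of these data known.

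Alternatives were 2 other filters, 2 other choices of probe set, 2 scalings, a trend and robust fit, array weights, fits of the compared groups alone, a replicate block, terms for the actin difference and Y-linked genes, P29 hyperoxia replicate 2 alone, and leaving out each array.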

Additional observations from a re-analysis of the deposited data

Results flagged for a closer look

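For 19 members the hyperoxia effect differed between P29 and P14 by limma's test of that difference (P29 effect minus P14 effect on the log2 scale, Benjamini-Hochberg over all genes). The effects at the 2 ages share no arrays. All P14 arrays were of the male pattern, while at P29 the room-air arrays were female and the hyperoxia arrays mixed. The part of sex in these differences was not tested.

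Among alveolar macrophage genes the difference was -4.63 for Ear3, whose effects at P14 and P29 had opposite signs (0.85 and -3.78). It was -2.07 for Fabp1, whose hyperoxia values lay near the floor at both ages. It was -1.60 for Krt79, -1.01 for Atp6v0d2, -0.71 for Itgax, -0.69 for Plet1, -0.53 for Pparg and -0.43 for Fabp5. Among resident genes it was 0.91 for C1qa, 0.97 for C1qb, 0.99 for C1qc and 0.70 for Pf4, and -0.74 for Mertk and -0.36 for Csf1r. It was -0.58 for Ctss, -0.89 for Cd9 and -0.84 for Cd36, which were lower by more at P29. Retnla gave 2.02 and Clec7a -0.83. The other Plet1 probe sets gave -0.22 and -0.89, so the size of the Plet1 difference depends on the probe set.

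Leaving out 1 array ended 5 of these 19 calls. Itgax lost its call without P14 room-air replicate 2 (-0.64, adjusted p = 0.0748) or P29 room-air replicate 2 (-0.55, adjusted p = 0.0839). Csf1r lost its call without any of 8 arrays, all but replicate 1 of each hyperoxia group (-0.38 to -0.32, adjusted p up to 0.0901). Plet1 also lost it without any of 8, all but P14 hyperoxia replicate 2 and P14 room-air replicate 1 (-0.75 to -0.49, adjusted p up to 0.143). Fabp5 lost it without any of 7, all but P14 hyperoxia replicate 1, P14 room-air replicate 2 and P29 hyperoxia replicate 1 (-0.44 to -0.35, adjusted p up to 0.0818). Ctss lost it without any of 6, namely each P14 hyperoxia array and replicate 2 of the other 3 groups (-0.60 to -0.41, adjusted p up to 0.148). The other 14 calls held without each array in turn.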

How the results depend on the processing

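The member log2 fold changes followed under the alternatives were mainly those called. Of their recomputed values, 1467 kept their direction and side of the threshold, 150 kept their direction and lost the call, and 11 changed sign. These counts leave out uncalled effects whose direction was less stable. With the actin term the uncalled effects of C1qc, Fcgr1, Apoe, Msr1 and Clec7a changed sign at P14. Those of Adgre1, Mertk, Folr2 and Cd14 did so at P29. The term for the actin difference moved most counts. With it, 1387 genes were called at P14 in place of 8249 and 2905 at P29 in place of 8948, with 1 member higher and 1 lower at P14 and 3 higher and 10 lower at P29. With each array at its own 75th percentile 5 members were higher at P14. For the difference of effects 3377 genes were called, 2174 with the second brightest probe set and 2088 with P29 hyperoxia replicate 2 alone. For age in room air 6195 genes were called, 3995 with the Y-linked term, and the members lower were 0 with that term and 1 with the trend and robust fit. For age in hyperoxia 4063 genes were called, 2088 with P29 hyperoxia replicate 2 alone, and the members lower were 2 without a filter, 0 with the Y-linked term and 0 with that array alone. The cause of these shifts was not tested.

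Leaving out 1 array gave 9 to 14 members lower for the difference of effects (9 without P29 room-air replicate 2) and 1 to 3 lower for age in room air (1 without P14 room-air replicate 2). It gave 6 to 10 higher and 9 to 14 lower at P14, and 8 to 10 higher and 17 to 21 lower at P29.

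Ccr2 changed sign with the mean of its probe sets (-0.19 at P14, -0.11 at P29) and with the second brightest (-0.53 and -0.72). Cx3cr1 at P29 did so likewise (-0.10 and -0.60), and Msr1 at P29 with the second brightest (-0.0029). The uncalled difference of effects of Chil3 turned to -0.21 with the Y-linked term, -0.41 with P29 hyperoxia replicate 2 alone, -0.36 without P14 hyperoxia replicate 2 and -0.04 without P29 hyperoxia replicate 1, and ranged from -0.36 to 0.59 over all arrays left out in turn.

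No pairing of samples by replicate number was seen, but so few arrays cannot exclude it. Deviations of same-numbered arrays correlated at 0.113 and 0.01 at P14 and at -0.093 and -0.065 at P29. Each age had 2 room-air arrays, whose deviations mirror each other, so the values of an age are not independent. With the replicate block, 9 members were higher and 14 lower at P14, and 9 higher and 20 lower at P29, and 8032 and 8781 genes were called. Itgam at P14 and Siglec1 at P29 lost their calls under the block (adjusted p = 0.053 and 0.0591). GCRMA values near the floor, such as those of Fabp1 and Itgam in hyperoxia, limit how large a fall can be measured.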

Other observations

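The probe set that Ly6c1 shares with Ly6c2, the surface antigens of monocytes and, for Ly6c1, of lung capillary endothelium, had 10.93, 10.74 and 11.0 in P14 hyperoxia, against 11.55 and 11.49 in P14 room air. At P29 it had 12.06, 12.14 and 12.19 in hyperoxia, against 12.52 and 12.80 in room air. The hyperoxia arrays were lower at both ages without overlap (log2 fold change -0.63 and -0.53), but signal from the 2 genes, and so from monocytes and endothelium, cannot be told apart.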
